A study of Mus musculus with 2 samples.

Results

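The cells described are Gdf10 Serpina3n fibroblasts from the tissue around the lymphatic vessels that drain into the submandibular lymph nodes of mice. A cell was included when it had at least 1 UMI (a counted mRNA molecule) of Pdgfra and of Dcn, UMIs of at least 4 of the 5 genes Cpz, Gdf10, Clec11a, Serpina3n and Fmo2, and UMIs of fewer than 3 of the 5 barred genes Rxfp1, Fbln7, Spon1, Greb1 and Mlana. This rule selected 1376 of 14300 cells, of which 838 were among the 6992 aged cells and 538 among the 7308 adult cells. The working name of these cells also carries Cpz, but Cpz was found in a minority of them in both libraries (48.2% of aged and 17.3% of adult cells), so they are named here by 2 other genes of the rule, which nearly all of them held because of it. Neither gene is particular to these cells: Gdf10 was also found in 53.7% of aged and 53.2% of adult Pdgfra Dcn cells outside the rule. The Pdgfra Dcn cells left out, 4822 aged and 5063 adult, are called the other fibroblasts.

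The study sampled FVB/N mice that carry Prox1-GFP, a reporter in which the Prox1 promoter, active in lymphatic endothelium, drives green fluorescent protein. There were 2 groups that differ in age: aged mice of 93 weeks and adult mice of 12 weeks, both with the reporter and with no other treatment given in the labels. In each group the afferent lymphatic vessels of 6 mice were pooled, sorted by flow cytometry and made into a single Chromium 3' single-cell library, so there was 1 library per age. With 1 library per age no difference between ages has a replicate check, and every interval given below covers counting error only. Age cannot be told apart from anything else that differed between the 2 pools. The labels give no sex, but cells with Xist and cells with Y-linked transcripts were present in both libraries.

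The aged table holds 13969 cells and the adult table holds 7308, with medians of 8190 (aged) and 12087.5 (adult) UMIs per cell. Of the adult barcodes, 6977 (95.5%) were also in the aged table, at a median of 6294 UMIs there against 12434 in the adult table, and these copies were removed from the aged side. Of the shared barcodes, 279 met the rule in the aged table and 527 in the adult table, 213 of them in both. After removal the Gdf10 Serpina3n fibroblasts had medians of 11324 UMIs and 3159.5 genes per cell in the aged library, and of 12558 UMIs and 3485 genes in the adult library. Mitochondrial transcripts made up a median of 1.86% of UMIs in aged and 2.23% in adult cells.

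Fibroblasts build and remodel the extracellular matrix, and those around lymphatic vessels form the adventitia and supply growth factors to the vessel wall. The genes that define these cells encode mostly secreted proteins. Gdf10 is a ligand of the TGF-beta superfamily, Clec11a is a secreted growth factor known from mouse bone marrow, and Serpina3n is a secreted inhibitor of serine proteases such as granzyme B. Cpz is a carboxypeptidase with a frizzled-like domain that binds Wnt proteins, Fmo2 is a flavin-containing monooxygenase, and Timp1 inhibits matrix metalloproteinases.

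The values in this paragraph were used to choose the cells and are a description only. Gdf10 was present in 99.5% of aged and 99.8% of adult Gdf10 Serpina3n fibroblasts, at 896 (aged) and 791 (adult) CPM (UMIs of a gene per 1000000 UMIs of the summed cells). Serpina3n was present in 96.5% (aged) and 98.1% (adult) at 369 (aged) and 299 (adult) CPM, Fmo2 in 94.99% (aged) and 97.0% (adult) at 485 (aged) and 381 (adult) CPM, and Clec11a in 93.6% (aged) and 98.3% (adult) at 228 (aged) and 203 (adult) CPM. The rule fixed the high shares of these 4 genes, and their levels differed less between them than that of Cpz. Cpz reached 85.2 CPM in aged and 18.8 CPM in adult cells, and it was the gene missing in 77.1% of the 563 aged and 92.5% of the 481 adult cells that held exactly 4 of the 5. Timp1, which the rule did not read, had a UMI in 74.8% of aged and 59.9% of adult cells. In endothelial cells of the same libraries, which serve as a gauge of free RNA at medians of 6194 (aged) and 7376 (adult) UMIs, Gdf10 was found in 2.62% (aged) and 4.52% (adult), Clec11a in 0.655% (aged) and 1.03% (adult), Cpz in 0.218% (aged) and 0% (adult), and Timp1 in 9.83% (aged) and 7.61% (adult) of cells. Serpina3n was found in 5.46% (aged) and 15.4% (adult) of endothelial cells. Fmo2 differed from the others here, with a UMI in 70.3% (aged) and 68.6% (adult) of endothelial cells.

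Cells just outside the threshold, with 3 of the 5 genes, numbered 743 in the aged and 780 in the adult library. Their Gdf10 stood at 448 CPM in aged and 546 CPM in adult cells, against 750 (aged) and 761 (adult) CPM in the cells just inside it with 4 of 5. Their Serpina3n stood at 141 (aged) and 163 (adult) CPM, against 293 (aged) and 272 (adult) CPM just inside. The rule itself put the levels inside above those outside. A further 237 aged and 278 adult cells had 4 or more of the 5 genes but were left out for holding 3 or more barred genes. Their Gdf10 stood at 1112 (aged) and 1109 (adult) CPM and their Fmo2 at 526 (aged) and 475 (adult) CPM, above the values of the chosen cells. Their Serpina3n was lower, at 287 (aged) and 286 (adult) CPM, against 369 (aged) and 299 (adult) CPM in the chosen cells. Their Timp1 was at 274 (aged) and 214 (adult) CPM, against 274 (aged) and 151 (adult) CPM in the chosen cells.

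The fibroblast label rests first on Pdgfra and Dcn, which the rule required in every cell. Outside the rule, Col1a2, a chain of type I collagen, was found in every one of the cells. Markers of other cell types were low, apart from 2 genes of the pericyte list and, in the aged library, Dcpp1, described below. The summed level of the lymphatic endothelial list was 32.7 CPM in aged and 42.3 CPM in adult cells, of the blood endothelial list 31.9 (aged) and 50.6 (adult) CPM, and of the smooth muscle list 39.7 (aged) and 103 (adult) CPM. The immune list summed to 60.5 (aged) and 47.1 (adult) CPM, with the pan-leukocyte gene Ptprc at 0 in both libraries. The pericyte list summed to 307 (aged) and 261 (adult) CPM, against 156 (aged) and 157 (adult) CPM in the other fibroblasts. Nearly all of it came from Abcc9 (216 CPM aged, 183 CPM adult) and Kcnj8 (74.1 CPM aged, 66.4 CPM adult), the subunits of an ATP-sensitive potassium channel. Both were at least 1.5-fold higher than in the other fibroblasts of both libraries. The most widely found gene of the list had a UMI in 77.2% of aged and 67.1% of adult cells. No doublet caller was run, and 14.4% of aged and 24.3% of adult Gdf10 Serpina3n fibroblasts held a UMI of Prox1, Cdh5, Pecam1, Myh11, Rgs5 or Ptprc, against 15.5% (aged) and 26.0% (adult) of the other fibroblasts.

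Clustering of all cells placed 382 (45.6%) of the aged and 158 (29.4%) of the adult Gdf10 Serpina3n fibroblasts in 1 cluster. It was led by Cpz, Timp1, Acp5, Mlana and Serpina3n and held the largest group of the aged cells. A second cluster, led by the interferon-induced genes Ifit1, Ifit3 and Iigp1, held 170 (20.3%) of the aged and 170 (31.6%) of the adult cells. In the adult library this second cluster held the largest group. A cluster led by Greb1 and Rxfp1 held 99 aged and 36 adult cells, and one led by Plcxd3 held 45 aged and 79 adult cells. A cluster led by Lgr5 held 37 aged and 0 adult cells, but only 4 adult cells of any kind lay in it. None lay in the clusters led by endothelial genes. The cells chosen by the rule were thus spread over several clusters.

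The genes outside the rule that stood highest in Gdf10 Serpina3n fibroblasts over the other fibroblasts were led by Tdo2 and C7. As the cells were chosen by correlated genes of the same cells, this contrast is a description and was not tested. Of 8686 genes measured (a UMI in at least 10% of the cells of a library and 50 UMIs in all), 125 (1.44%) were at least 2-fold higher in both libraries and 123 (1.42%) at least 2-fold lower. At 1.5-fold the counts were 332 (3.82%) and 403 (4.64%). Tdo2, which opens the tryptophan ring in the kynurenine pathway, was at 57.9 CPM in aged and 70.8 CPM in adult cells, against 8.62 (aged) and 11.6 (adult) CPM in the other fibroblasts. C7, a terminal complement component, was at 734 (aged) and 993 (adult) CPM, against 126 (aged) and 194 (adult) CPM. Inmt, a methyltransferase of indole amines, was at 1058 (aged) and 1319 (adult) CPM, against 271 (aged) and 359 (adult) CPM. The order of the libraries was the same in the chosen and the other cells for all 3 genes, with the adult value above the aged one. The log2 ratio of chosen over other cells was 2.31 in the aged and 2.05 in the adult library for Rspo2, a secreted Wnt amplifier. The chosen cells were more often male than the other fibroblasts, with 530 male and 155 female aged cells among the chosen against 2409 male and 1907 female among the others. Within female cells the ratio of Rspo2 was 0.77 (aged) and 0.65 (adult), and within male cells it was 2.47 (aged) and 1.95 (adult). The ratio of C7 was 2.53 (aged) and 2.35 (adult) without regard to sex, and 1.67 (aged) and 1.17 (adult) within female cells. That of Tdo2 was not smaller within female cells, at 3.02 (aged) and 2.62 (adult). Without regard to sex, the ratio was 1.77 (aged) and 1.76 (adult) for F3, tissue factor, which starts blood coagulation. For Timp1 it was 2.05 (aged) and 1.72 (adult), and within female cells 1.24 (aged) and 1.07 (adult). Mylk3, Gnai1, P2ry1, Fam107a, Lrrtm3, Slco2b1, Ifitm1 and Prdm6 were also among the 15 highest, with ratios between 1.58 and 2.03. All 15 genes stayed at least 1.5-fold higher in both libraries within male and within female cells, an alternative chosen after seeing the data.

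The lowest genes were led by Efna5, an ephrin ligand, at 34.6 CPM in aged and 26.2 CPM in adult Gdf10 Serpina3n fibroblasts, against 218 (aged) and 202 (adult) CPM in the other fibroblasts. Sbsn, a secreted protein of epidermis and of adventitial fibroblasts, was at 23.4 (aged) and 11.9 (adult) CPM, against 128 (aged) and 90.3 (adult) CPM. Cd55, which shields cells from complement, was at 89.7 (aged) and 84.6 (adult) CPM, against 348 (aged) and 334 (adult) CPM. The other genes among the 12 lowest were Tek, Aif1l, Limch1, Nav3, Pcsk6, Prdm8, Glp2r, Maf and Pla1a. All 8 genes of a list for Pi16 Sbsn adventitial fibroblasts were lower in the chosen cells of both libraries, and 2 or more of Pi16, Sbsn and Dpp4 were found in 27.4% of aged and 36.2% of adult chosen cells, against 71.1% (aged) and 72.5% (adult) of the other fibroblasts. By contrast, 2 or more of Plcxd3, Cxcl13 and C7 were found in 45.5% (aged) and 65.1% (adult) of chosen cells, against 18.7% (aged) and 28.9% (adult).

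**Figure D1:**
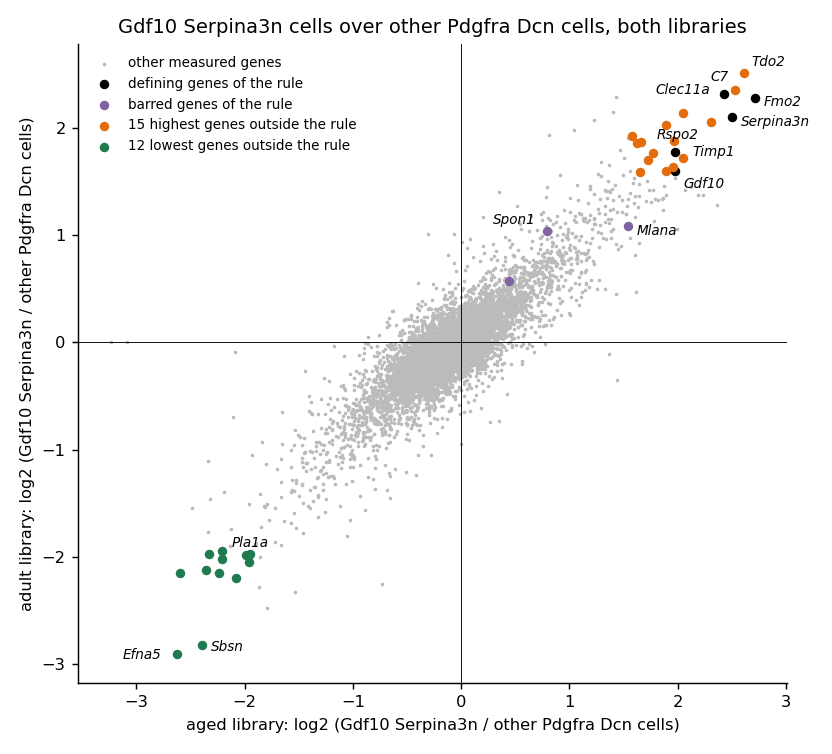
Each point is 1 of the 8686 measured genes, with the log2 ratio of Gdf10 Serpina3n fibroblasts over the other fibroblasts in the aged library on the horizontal axis and in the adult library on the vertical axis (1 CPM added). Genes of the rule are black (defining) and purple (barred), and Tdo2 at 2.61 and 2.51 and Efna5 at -2.62 and -2.90 lie at the far ends of the genes outside the rule.

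Gdf10 Serpina3n fibroblasts made up a larger share of the aged than of the adult cells. They were 12.0% of aged cells (95% exact binomial interval 11.2 to 12.8) and 7.36% of adult cells (6.77 to 7.98), a ratio of 1.63 (1.46 to 1.82). Among Pdgfra Dcn cells alone the shares were 14.8% (aged) and 9.61% (adult). After each cell was thinned to 5000 UMIs, which left out 624 aged and 617 adult shallower cells, the shares were 6.19% (aged) and 3.11% (adult), a ratio of 1.99. Cells with all 5 genes made up 3.93% of aged and 0.780% of adult cells, a ratio of 5.04, and Cpz differed between the ages in the other fibroblasts too (20.9 CPM aged, 4.79 CPM adult). With Cpz not read, so that the 4 remaining genes had to be present, the shares were 10.1% (aged) and 6.87% (adult), a ratio of 1.48. With the copies of adult barcodes kept in the aged table, the shares were 8.0% (aged) and 7.36% (adult), a ratio of 1.09 (0.979 to 1.21). The difference in share thus depends on removing those copies. Of the 6977 copies, which carry adult barcodes at lower depth, 4.0% met the rule there, so keeping them lowers an aged share of 12.0%. This setting therefore cannot test the share among the remaining aged cells. In a sorted sample the share also depends on what the sort let through, and that was not tested.

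The share was larger among male than among female cells in both libraries. Sex was read per cell from Xist and from 4 Y-linked genes, and how many of the mice were of each sex is not stated in the sources used here. In the aged library 15.2% of 3492 male and 6.04% of 2567 female cells met the rule, and in the adult library 10.5% of 2860 male and 4.15% of 3520 female cells did. At 5000 UMIs per cell the shares were 7.93% of male and 2.73% of female aged cells, and 3.99% of male and 2.01% of female adult cells. The difference was smaller with the barred genes not read. In that reading, 16.6% of male and 11.3% of female aged cells, and 11.7% of male and 9.52% of female adult cells, held 4 or more of the 5 genes. Cells with 3 or more barred genes beside 4 or more of the 5 were 1.46% of male and 5.30% of female aged cells, and 1.22% of male and 5.37% of female adult cells. The pools also differed in sex make-up, since 57.6% of the sexed aged cells and 44.8% of the sexed adult cells were male. Within each sex the ratio of the aged over the adult share was 1.45 in male and 1.46 in female cells.

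**Figure D2:**
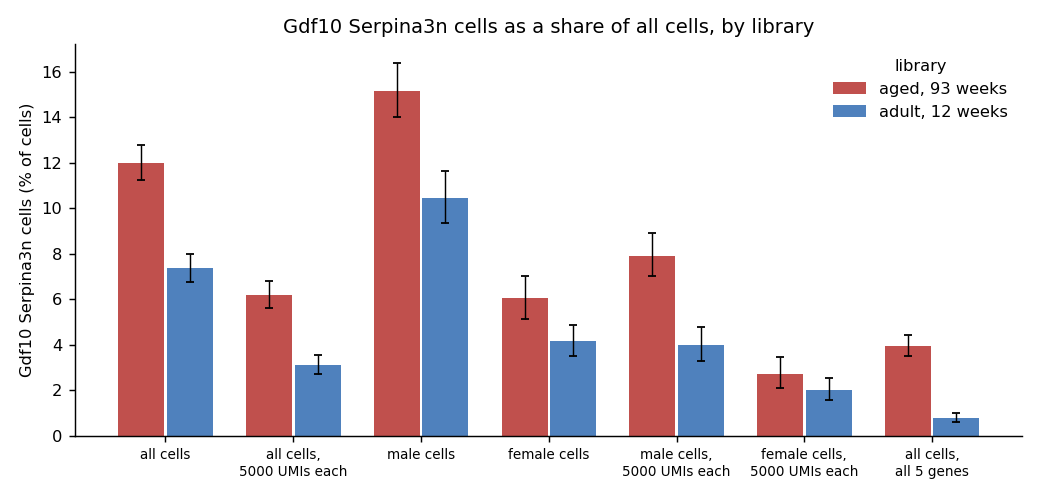
Bars give Gdf10 Serpina3n fibroblasts as a percentage of all cells, or of male or female cells, in the aged (red) and adult (blue) library, and whiskers give 95% exact binomial intervals, which cover counting error only. The aged bar is the taller of each pair, and male cells at 15.2% (aged) and 10.5% (adult) stand above female cells at 6.04% (aged) and 4.15% (adult).

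Between the ages, 57 of the 8686 genes (0.656%) were at least 2-fold higher and 140 (1.61%) at least 2-fold lower in aged Gdf10 Serpina3n fibroblasts, and the median log2 ratio of aged over adult of all genes was -0.08. In the other fibroblasts the same genes gave 35 (0.403%) and 80 (0.921%). Of the 57 genes, 55 lay in the same direction in the other fibroblasts, 57 in male cells and 56 in female cells. Of the 140 genes, 139, 140 and 137 did. Male and female cells are parts of the cells that picked these genes, so a shared direction there follows largely from the choice. At least 2-fold in the other fibroblasts were 26 of the 57 and 60 of the 140. The numbers were 50 and 123 in male cells, 27 and 91 in female cells, and 22 and 76 in both sexes. With the removed copies kept in the aged table, the counts were 39 and 70, and all of these were among the 57 and the 140. All ratios have 1 CPM added to both sides, whereas the intervals are those of the raw ratio, so that the ratio of a low gene can fall outside its interval.

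The highest ratios were those of Dcpp1 and Dcpp2. Dcpp1 and Dcpp2, near-identical neighbours that encode secreted salivary gland proteins, had 726 and 590 UMIs in aged cells and 0 in adult cells. A count of 0 has an upper 95% limit of about 3 UMIs in the summed adult cells, or 0.420 CPM. Dcpp1 in aged cells stood at 170 times that limit. The 0 depends on the table read: the removed copies of adult barcodes held 109 Dcpp1 and 73 Dcpp2 UMIs in the aged table. The adult table held 0 of either gene. Dcpp1 was present in 29.8% of aged Gdf10 Serpina3n fibroblasts and in 40.6% of aged endothelial cells. An epithelial and gland list of 7 genes, Dcpp1 among them, summed to 72.4 CPM in aged and 0 CPM in adult cells. Dcpp1 alone was at 71.5 CPM in aged cells. In the other fibroblasts the list summed to 685 (aged) and 0.198 (adult) CPM. Krt5 and Krt14 of that list were at 0 in both libraries. Free RNA as the source of the Dcpp counts was not tested. B830012L14Rik, a transcript with no function stated in the files, was at 29.0 CPM in aged and 1.68 CPM in adult cells. Cgref1, a calcium-binding growth regulator, was at 26.5 (aged) and 3.78 (adult) CPM, and Itm2a, a small membrane protein, was at 267 (aged) and 69.1 (adult) CPM. Lif, a cytokine of the interleukin-6 family, was at 16.2 (aged) and 3.64 (adult) CPM, and Gm56730 was at 79.0 (aged) and 21.2 (adult) CPM. Sparc, Col1a1, Rian and Peg3, described below, were also among the 12 highest. The log2 ratio was 2.12 for Cpz, which the rule read (interval 1.92 to 2.46), with 2.35 in male and 1.18 in female cells.

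At the other end stood Rasgrf1, a Ras exchange factor that is itself imprinted in mice, at 0.985 CPM in aged and 20.2 CPM in adult cells. C130026I21Rik was at 2.66 (aged) and 24.4 (adult) CPM, and Nlrc5, the transactivator of class I genes, was at 2.46 (aged) and 22.8 (adult) CPM. Stk32b, a kinase, was at 2.36 (aged) and 17.4 (adult) CPM with a log2 ratio of -2.45, against -0.45 in the other fibroblasts. Cdh9, a cadherin, was at 6.4 (aged) and 33.1 (adult) CPM with a ratio of -2.20, against -0.78 in the other fibroblasts. Trim69 and Patl2, which flank B2m on chromosome 2 in the RefSeq gene order, were at 22.1 (aged) and 117 (adult) CPM and at 4.14 (aged) and 25.2 (adult) CPM. The remaining genes among the 12 lowest were ENSMUSG00000095041, the clock repressor Nr1d1 (1.67 CPM aged, 11.2 CPM adult), Gm4951, Ifi208 and Nxph1 (14.1 CPM aged, 60.1 CPM adult). The adult cells were the higher ones for all of these genes in the other fibroblasts as well.

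The list of fibrillar collagens and the enzymes that mature them had members higher and none lower in the aged library. Of 23 measured genes of that list, 10 were at least 1.5-fold higher and 0 at least 1.5-fold lower, while 2.76% of all genes were higher and 7.89% lower by that size in these cells, and in the other fibroblasts 1.59% were higher and 3.78% lower. The list's median log2 ratio was 0.49, and 0.38 in the other fibroblasts. In male cells 11 of the 23 were higher and in female cells 4, with 0 lower in cells of either sex. Col1a1, which encodes the main chain of type I collagen, was at 3631 CPM in aged and 1005 CPM in adult cells, a log2 ratio of 1.85 (1.82 to 1.89), against 1.11 in the other fibroblasts. Col3a1, the chain of type III collagen, was at 7119 (aged) and 2225 (adult) CPM (1.68), against 1.16 in the other fibroblasts. Col1a2, the second chain of type I collagen, was at 7618 (aged) and 2978 (adult) CPM (1.35), against 0.86. The difference lay across the whole range of cells and not in a few of them: the median aged cell held 23.1 Col1a1 UMIs per 10000, which equals about the 90th percentile of adult cells (23.3), whose median was 5.86. In endothelial cells, Col1a1 UMIs were found in 8.52% of aged and 4.0% of adult cells.

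The size of the collagen difference varied with sex. Col1a1 was at 4207 CPM in aged and 990 CPM in adult male cells, and at 1944 (aged) and 1049 (adult) CPM in female cells. Sparc, a collagen-binding matricellular protein, was at 9676 (aged) and 2085 (adult) CPM in male cells and at 3628 (aged) and 1898 (adult) CPM in female cells, and at 8444 (aged) and 2035 (adult) CPM over all. For Col1a1 and Sparc the aged male cells were the highest and the adult levels of the sexes were close. Other collagens differed between the sexes in the adult library, with Col1a2 at 3217 CPM in male and 2518 CPM in female cells and Col3a1 at 2098 (male) and 2672 (female) CPM. Among the collagen-processing genes, Serpinh1, the collagen chaperone, was at 840 (aged) and 534 (adult) CPM, and Lox, which cross-links collagen and elastin, was at 42.0 (aged) and 22.98 (adult) CPM. Lox had a log2 ratio of 0.84, against 0.04 in the other fibroblasts, and of 1.70 in male and -0.20 in female cells. Col5a1 (0.89), Col5a2 (0.72), P4ha2 (0.67), Loxl2 (0.62) and P3h1 (0.59) completed the 10, and Col5a3 was the lowest at -0.09.

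Other matrix lists had fewer such members. Against the 2.76% of all genes higher and 7.89% lower, of 14 other collagens 3 were at least 1.5-fold higher and 0 lower: Col4a5, a basement membrane chain, at 35.7 CPM in aged and 9.81 CPM in adult cells, Col6a2 at 524 (aged) and 288 (adult) CPM, and Col6a1 at 762 (aged) and 455 (adult) CPM. Of 9 small leucine-rich proteoglycans 2 were higher and 0 lower, Aspn at 236 (aged) and 136 (adult) CPM and Podn at 364 (aged) and 223 (adult) CPM, with a median log2 ratio of 0.42 against 0.08 in the other fibroblasts. Dcn (-0.06) and Bgn (0.03) of the same list were near 0. Of 17 elastic fibre genes 3 were higher and 2 lower. Mfap4, a microfibril protein, was at 235 (aged) and 97.4 (adult) CPM, and Eln, elastin, at 222 (aged) and 115 (adult) CPM, while Efemp1 was at 259 (aged) and 487 (adult) CPM and Fbln2 at 268 (aged) and 408 (adult) CPM. Efemp1 had a ratio of -0.91, against -0.14 in the other fibroblasts. Of 18 matricellular genes 3 were higher (Sparc, Postn and Tgfbi) and 1 lower (Sparcl1, at 194 (aged) and 388 (adult) CPM), and of 16 basement membrane genes 0 were higher and 1 lower.

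Matrix proteases and their inhibitors lay in both directions. Of 20 metalloproteases 4 were higher and 4 lower in aged cells, where 2.76% of all genes were higher and 7.89% lower, with Mmp27 highest (21.8 CPM aged, 9.67 CPM adult) and Mmp11 lowest (5.71 CPM aged, 11.3 CPM adult). Mmp14, the main membrane-bound collagenase, was at 125 (aged) and 189 (adult) CPM. Of 16 protease inhibitors 3 were higher, Timp1, Wfdc1 and Serpinh1, and 1 was lower, Serpine2. Timp1 was at 274 (aged) and 151 (adult) CPM, a log2 ratio of 0.86 (0.76 to 0.96), with 0.84 in male and 0.89 in female cells and 0.53 in the other fibroblasts. Serpina3n, by contrast, had a ratio of 0.30. Serpine2 was at 79.5 (aged) and 146 (adult) CPM over all, but its ratio was -1.19 in male and 1.60 in female cells. Of 8 carboxypeptidases 3 were higher, one of them Cpz, which the rule read and which is not counted as a result. The others were Cpe (80.1 CPM aged, 29.98 CPM adult) and Cpxm1 (297 CPM aged, 154 CPM adult), and Cpxm2 was lower (8.87 CPM aged, 35.03 CPM adult).

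**Figure D3:**
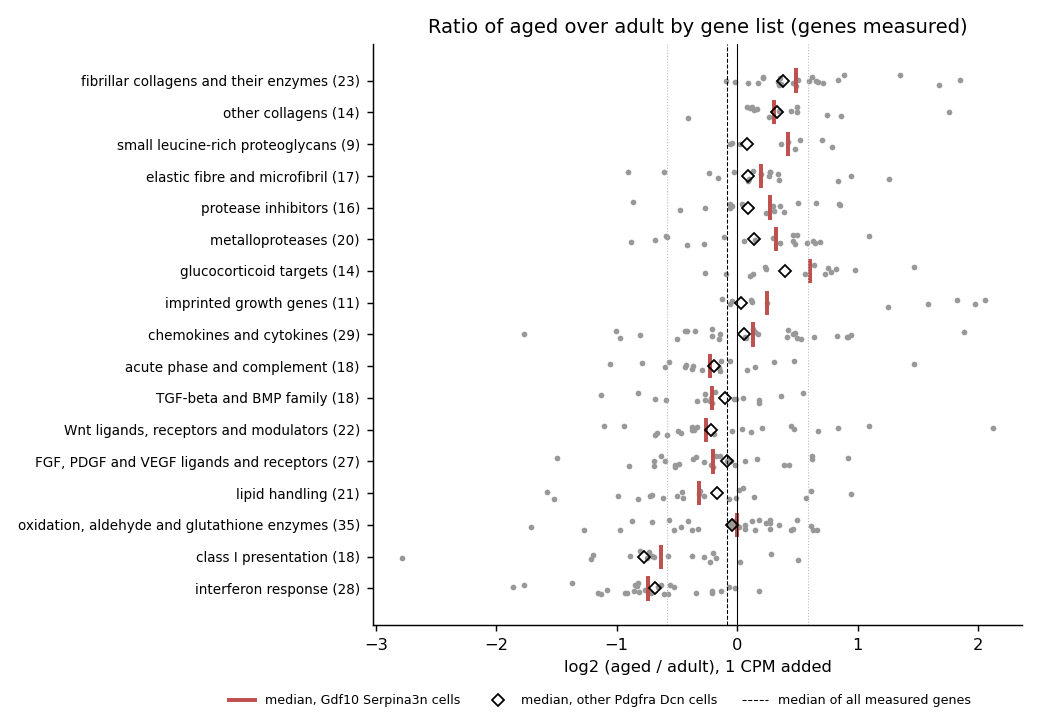
Grey points are the measured genes of each list, placed by their log2 ratio of aged over adult in Gdf10 Serpina3n fibroblasts, red bars are the list medians there, open diamonds are the medians in the other fibroblasts, and the dotted lines mark 1.5-fold. Fibrillar collagens (0.49) and glucocorticoid targets (0.60) lie to the right, and class I presentation (-0.63) and the interferon response (-0.74) lie to the left of the median of all genes (-0.08).

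Interferon-induced genes were lower in the aged library. Type I and type II interferons act through STAT and IRF proteins, which bind the interferon-stimulated response element in promoters, and type II interferon also raises antigen presentation on class I molecules. Of 28 measured interferon-response genes 0 were at least 1.5-fold higher and 18 at least 1.5-fold lower in aged cells, where 2.76% of all genes were higher and 7.89% lower. The median log2 ratio was -0.74, against -0.68 in the other fibroblasts, with -0.57 in male and -1.01 in female cells. Ifit1, which binds viral RNA, was at 32.5 CPM in aged and 121 CPM in adult cells. Cxcl10, a chemokine that attracts T cells, was at 43.5 (aged) and 151 (adult) CPM, and Iigp1, an immunity-related GTPase, at 248 (aged) and 644 (adult) CPM. The cluster led by Ifit1 held 20.3% of aged and 31.6% of adult cells, and it was formed on these same genes, so that leaving it out takes away cells high in them by construction. Without that cluster 6 of the 28 genes were 1.5-fold lower, and in the cluster led by Cpz and Timp1 alone 10 were. Without the cluster led by Ifit1 the ratio of Ifit1 was -0.06, that of Cxcl10 -0.55 and that of Iigp1 -1.05, and the list median was -0.47. Irf1, an interferon-induced transcription factor, was at 321 (aged) and 506 (adult) CPM, and Ifi27 (0.18) was the highest gene of the list.

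Class I antigen presentation was lower in aged cells by a like amount. Of 18 genes 0 were at least 1.5-fold higher and 9 lower, against 2.76% and 7.89% of all genes, with a median of -0.63, against -0.78 in the other fibroblasts. B2m, the light chain of every class I molecule, was at 547 CPM in aged and 1255 CPM in adult cells, a log2 ratio of -1.20 (-1.25 to -1.15), with -1.22 in male and -1.27 in female cells and -1.16 without the cluster led by Ifit1. The heavy chains H2-D1 and H2-K1 were at 1212 (aged) and 2038 (adult) CPM and at 502 (aged) and 833 (adult) CPM. The genes Psmb9 (-0.81), Tap1 (-0.89), Psmb8 (-0.71) and Tap2 (-0.69), which lie side by side on chromosome 17 and encode immunoproteasome subunits and the peptide transporter, were all lower. H2-Q7 (0.50) and H2-Q4 (0.28) stood on the other side, although class I genes are close copies of each other and their reads can be split among them. In endothelial cells, B2m UMIs were found in 92.4% of aged and 99.2% of adult cells.

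The promoters of Ifit1, Cxcl10 and B2m are shown for a known motif, which only part of the interferon and class I lists holds. The windows are the 250 bases before the RefSeq gene start on build GRCm38.p6, read 5' to 3' on the strand of the gene, and capitals mark the interferon-stimulated response element, searched on either strand as GAAA, any 2 bases and GAAA again. Ifit1 at chr19:34640639-34640888, plus strand, has 2 matches on the opposite strand, 95 and 76 bases before the start, Cxcl10 at chr5:92348890-92349139, minus strand, has 1 match 204 bases before the start, and B2m at chr2:122147437-122147686, plus strand, has 1 match 130 bases before it.
Ifit1: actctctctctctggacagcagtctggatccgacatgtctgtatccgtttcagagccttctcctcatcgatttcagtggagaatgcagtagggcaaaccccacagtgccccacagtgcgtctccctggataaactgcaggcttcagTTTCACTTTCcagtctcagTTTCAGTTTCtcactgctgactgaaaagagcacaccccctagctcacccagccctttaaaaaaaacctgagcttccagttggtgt
Cxcl10: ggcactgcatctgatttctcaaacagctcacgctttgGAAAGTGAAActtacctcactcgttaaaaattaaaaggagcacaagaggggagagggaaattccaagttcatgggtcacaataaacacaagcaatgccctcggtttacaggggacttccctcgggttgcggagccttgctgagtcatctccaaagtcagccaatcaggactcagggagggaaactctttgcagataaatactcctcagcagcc
B2m: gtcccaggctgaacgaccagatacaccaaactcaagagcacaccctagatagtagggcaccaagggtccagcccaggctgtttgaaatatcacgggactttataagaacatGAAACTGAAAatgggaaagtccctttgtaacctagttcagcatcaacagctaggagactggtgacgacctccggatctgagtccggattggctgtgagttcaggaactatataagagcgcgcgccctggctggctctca
The motif was present in 13 of the 22 interferon-response promoters in the table (59.1%), in 3 of 16 class I promoters (18.8%) and in 225 of 6910 promoters of all measured genes (3.26%). A match is a run of letters and was not tested as a binding site.

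For the collagens the corresponding windows are shown for contrast, as 2 genes of like ratio that differ in this letter pattern. Capitals mark CCAAT, the box bound by the CCAAT-binding factor, searched on both strands. Col1a2 at chr6:4505368-4505617, plus strand, has 1 match 105 bases before the start, and Col3a1 at chr1:45311288-45311537, plus strand, has 0.
Col1a2: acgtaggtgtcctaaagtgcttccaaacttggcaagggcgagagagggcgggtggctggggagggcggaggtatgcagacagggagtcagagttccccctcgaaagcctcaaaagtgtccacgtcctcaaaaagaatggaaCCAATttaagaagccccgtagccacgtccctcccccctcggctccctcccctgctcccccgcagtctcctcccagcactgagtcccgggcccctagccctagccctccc
Col3a1: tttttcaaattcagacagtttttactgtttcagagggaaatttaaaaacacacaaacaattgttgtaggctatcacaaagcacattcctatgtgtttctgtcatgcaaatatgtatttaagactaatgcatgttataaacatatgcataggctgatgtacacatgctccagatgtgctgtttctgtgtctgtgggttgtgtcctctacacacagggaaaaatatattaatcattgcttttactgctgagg
The box was found in 4 of 14 promoters of the fibrillar collagen list (28.6%), against 2758 of 6910 of all measured genes (39.9%).

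The lists of glucocorticoid targets and of imprinted growth genes each had members higher and none lower in the aged library. Of 14 glucocorticoid targets 7 were at least 1.5-fold higher and 0 lower, against 2.76% and 7.89% of all genes, with a median of 0.60, against 0.39 in the other fibroblasts. Zbtb16, a transcription factor induced by the glucocorticoid receptor, was at 195 CPM in aged and 69.8 CPM in adult cells. The metallothioneins Mt1 and Mt2, which bind zinc and copper, were at 6712 (aged) and 3400 (adult) CPM and at 1653 (aged) and 996 (adult) CPM. Fkbp5, a chaperone of the receptor, was at 108 (aged) and 63.5 (adult) CPM, with 0.88 in male and 0.02 in female cells, while the receptor gene Nr3c1 (-0.10) was near 0 and Dusp1 (-0.27) was the lowest of the list. Of 11 imprinted growth genes 5 were higher and 0 lower, with a median of 0.25, against 0.03 in the other fibroblasts. The summed level of all 19 genes of the list in the files was 24171 CPM in aged and 24487 CPM in adult cells. Most of that sum was Dcn, which the rule required in every cell, at 21699 (aged) and 22650 (adult) CPM. The sum therefore says little about the other genes of the list. The non-coding RNAs Rian and Meg3, neighbours between Dlk1 and Dio3 on chromosome 12, were at 130 (aged) and 30.5 (adult) CPM and at 357 (aged) and 100 (adult) CPM. Meg3 had a UMI in 70.2% of aged and 20.3% of adult cells, and in 3.06% (aged) and 1.42% (adult) of endothelial cells. Peg3, a paternally expressed zinc-finger gene, was at 82.7 (aged) and 20.3 (adult) CPM. Mest, a paternally expressed hydrolase gene, was at 30.4 (aged) and 12.2 (adult) CPM (1.25), against -0.21 in the other fibroblasts, and its ratio was 1.83 in male and -0.02 in female cells.

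Secreted signals differed member by member. Of 29 chemokines and cytokines 6 were higher and 4 lower in aged cells, against 2.76% and 7.89% of all genes. The neutrophil attractant Cxcl1 was at 2650 CPM in aged and 1409 CPM in adult cells, and the monocyte attractant Ccl2 at 1063 (aged) and 551 (adult) CPM. Cxcl13, which attracts B cells, was at 1033 (aged) and 2081 (adult) CPM (-1.01), whereas the other fibroblasts had 1275 CPM in the aged and 1035 CPM in the adult library (0.30). In male cells Cxcl13, Plcxd3 and C7, a list of 3 genes, were all at least 1.5-fold lower in the aged library. In female cells 0 of the 3 were, and the list median was 0.126. Ccl11, which attracts eosinophils, was at 327 (aged) and 644 (adult) CPM. Of 18 acute phase and complement genes 1 was higher and 3 lower. Ptx3, a pentraxin, was at 882 (aged) and 318 (adult) CPM, C4b at 503 (aged) and 1048 (adult) CPM and C7 at 734 (aged) and 993 (adult) CPM. Tissue factor, F3, was at 158 (aged) and 289 (adult) CPM, and Tfpi2, an inhibitor of its pathway, at 74.5 (aged) and 36.6 (adult) CPM.

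Among growth factors, Fgf10, a ligand that acts on epithelium, was at 27.3 CPM in aged and 79.0 CPM in adult cells (-1.50), against 63.0 (aged) and 81.1 (adult) CPM (-0.36) in the other fibroblasts. Of 27 FGF, PDGF and VEGF genes 3 were higher and 6 lower, against 2.76% and 7.89% of all genes, with a median of -0.20. Vegfc, the main growth factor of lymphatic endothelium, was at 33.3 (aged) and 21.3 (adult) CPM (0.62, interval 0.36 to 0.93), against 18.5 (aged) and 18.3 (adult) CPM in the other fibroblasts. Ccbe1, which is needed to activate Vegfc, was at 42.1 (aged) and 79.3 (adult) CPM (-0.90), against 15.3 (aged) and 31.0 (adult) CPM in the other fibroblasts. These are genes of interest around lymphatic vessels, and the ligand and its activator lay in opposite directions. Vegfc was also found in 33.0% of aged and 27.0% of adult endothelial cells, whereas Ccbe1 was found in 0.218% (aged) and 0% (adult). Vegfd (-0.48), Hgf (-0.20) and Angpt2 (0.46) lay under 1.5-fold. Of 18 TGF-beta and BMP genes 0 were higher and 4 lower, with Bmpr1b lowest at 16.1 (aged) and 36.4 (adult) CPM and Tgfb3 highest at 35.9 (aged) and 24.2 (adult) CPM. Of 22 Wnt genes 4 were higher and 4 lower. Cpz, which the rule read and which is not counted as a result, was among the higher ones. Wnt2 stood higher at 20.3 (aged) and 8.97 (adult) CPM and the Wnt-binding Sfrp4 at 365 (aged) and 204 (adult) CPM. Dkk3 stood lower at 21.2 (aged) and 46.8 (adult) CPM.

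Of 21 lipid-handling genes, 2 were higher and 7 lower in aged cells, with a median of -0.32. Among all 8686 genes too more were lower (685, 7.89%) than higher (240, 2.76%) at this size, and these shares are the background for each list below. Pltp, a phospholipid transfer protein, was at 142 CPM in aged and 426 CPM in adult cells, and Apod, a lipocalin, at 4853 (aged) and 7935 (adult) CPM. Of 35 oxidation and glutathione genes 3 were higher and 5 lower, with Gsta3 at 4.53 (aged) and 17.1 (adult) CPM. Of 27 oxidative phosphorylation genes 0 were higher and 0 lower. Of 20 positional transcription factors 0 were higher and 6 lower, including Runx2 (8.87 CPM aged, 25.2 CPM adult), Runx1 (22.8 CPM aged, 56.7 CPM adult) and Sox9 (11.3 CPM aged, 28.3 CPM adult), and Sox9 had a ratio of -0.31 in the other fibroblasts. Of 12 clock genes 4 were higher and 2 lower: Nfil3, Per1, Cry1 and Cry2 stood higher, and Nr1d1 and Nr1d2 lower. The hour at which tissue was taken is not stated in the sources used here.

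**Figure D4:**
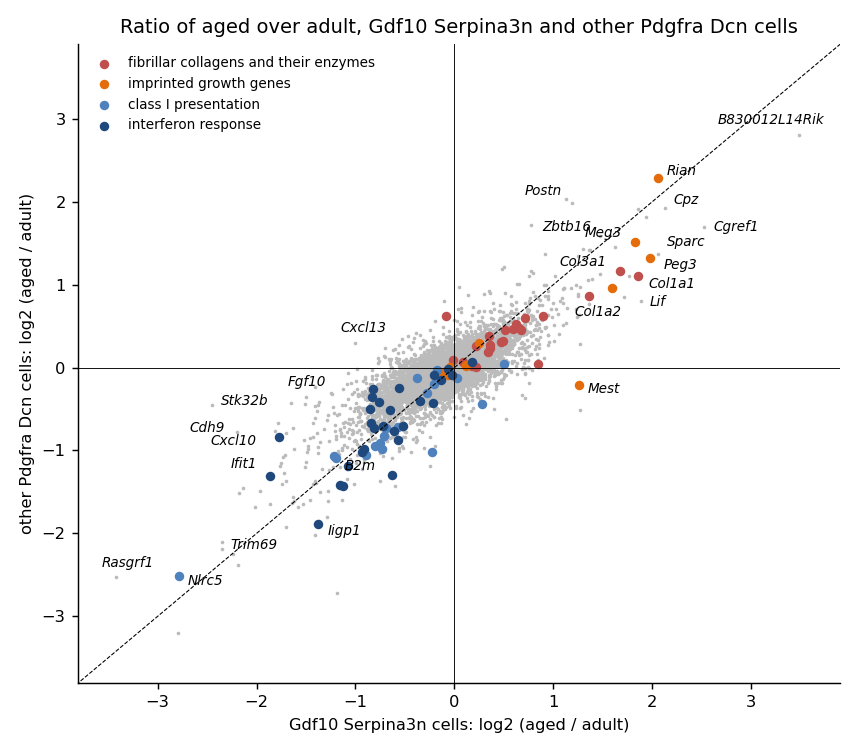
Each point is a measured gene, with its log2 ratio of aged over adult in Gdf10 Serpina3n fibroblasts on the horizontal axis and in the other fibroblasts on the vertical axis, and the dashed line marks equal ratios (genes of the Dcpp family are left out). The 23 fibrillar collagen and enzyme genes are red, with Col1a1 at 1.85 and 1.11, and Cxcl13 lies in the upper left quadrant, at -1.01 and 0.30.

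The cells of male and female mice differed from each other in both libraries. The genes named here were chosen after their values were seen, and the numbers of mice of each sex are unknown, so no test was made. There were 530 male and 155 female aged cells, and 299 male and 146 female adult cells. In both libraries, 52 genes (0.599%) were at least 2-fold higher and 41 (0.472%) at least 2-fold lower in male than in female Gdf10 Serpina3n fibroblasts. Of the 52, 3 lay on chromosome Y and were used to read the sex, and Xist was 1 of the 41. In the other fibroblasts 48 of the 52 and 40 of the 41 lay in the same direction in both libraries, and 23 and 19 were 2-fold there too.

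C7, one of the genes that marked these cells, was at 921 CPM in male and 137 CPM in female aged cells, and at 1415 CPM in male and 125 CPM in female adult cells. Agt, angiotensinogen, was at 42.6 CPM in male and 7.37 CPM in female aged cells, and at 66.6 (male) and 1.05 (female) CPM in adult cells. Ace, the enzyme that makes angiotensin II, was at 402 CPM in male and 188 CPM in female aged cells, and at 452 (male) and 215 (female) CPM in adult cells. Male cells were thus higher for both the precursor and the enzyme in either library. Ramp1, a subunit of the receptor for calcitonin gene-related peptide, had a log2 ratio of male over female of 2.30 in aged and 3.38 in adult cells. The decoy receptor Il1r2, which binds interleukin-1, had 1.62 (aged) and 2.52 (adult), Rspo2 2.07 (aged) and 2.62 (adult), Tdo2 1.36 (aged) and 1.23 (adult), and Hsd11b1, which regenerates active glucocorticoid, 1.61 (aged) and 1.30 (adult). Serpina3c (1.41 aged, 1.30 adult) and Serpina3h (1.48 aged, 1.92 adult), close copies of Serpina3n among which reads can be split, were also in this group. Serpina3n itself, which the rule read, was at 411 CPM in male and 201 CPM in female aged cells, and at 348 (male) and 184 (female) CPM in adult cells.

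In the other direction, Mgp, an inhibitor of calcification, was at 1615 CPM in male and 3286 CPM in female aged cells, and at 901 (male) and 3315 (female) CPM in adult cells. The Hedgehog pathway genes Ptch1 (log2 ratio of male over female -1.35 in aged, -1.23 in adult) and Hhip (-1.33 aged, -2.44 adult), which encode a receptor and a decoy that Hedgehog signalling induces, were both lower in male cells. Igfbp3 (-3.45 aged, -1.74 adult), Cyp7b1 (-2.61 aged, -1.81 adult) and Gpc3 (-1.13 aged, -1.43 adult) were lower as well. Spon1, a barred gene, was at 126 CPM in male and 441 CPM in female aged cells, and at 101 (male) and 300 (female) CPM in adult cells, and the rule read this gene when it kept or left out a cell.

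**Figure D5:**
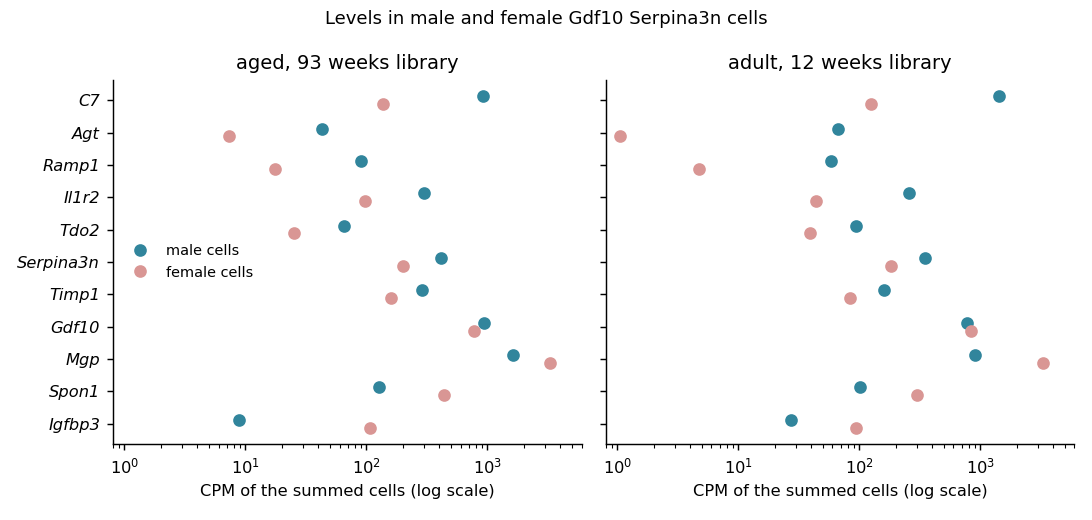
Points give the CPM of the summed male (teal) and female (pink) Gdf10 Serpina3n fibroblasts on a log axis, for the aged library on the left and the adult library on the right. C7 and Agt lie to the right in male cells and Mgp in female cells of both libraries, whereas the points for Gdf10 lie close together.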

How the data were processed

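The deposited files are 1 table of natural log values per library, genes by cells. Per the file values, the authors scaled each cell's UMI counts to 10000 and took the natural log of 1 plus that value. The submitters' processing notes name Seurat 5.0.3 and the builds GRCm39 and mm10 with no role for either, and name no aligner. The smallest unlogged value of a cell was taken as 1 UMI, and 100% of the values then came out as whole UMIs within 0.01. The rows of the 93-week table carry no gene names, and took those of the same row in the 12-week table. For barcodes in both tables, 15474 of 15551 rows with enough counts matched the same row best.

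UMIs were summed over cells, given as CPM, and compared as log2 ratios with 1 CPM added and exact conditional binomial 95% intervals. No test was made between ages, since each has 1 library. A gene was measured where 10% of the cells of either library held a UMI and it had 50 UMIs in all. Cells were clustered by the Leiden method (2000 variable genes, 30 components, 15 neighbours, resolution 1) in Python 3.11.15 with numpy 2.4.6, scipy 1.17.1, scikit-learn 1.9.0 and igraph 0.11.9. A cell was male with a Y-linked UMI and no Xist, and female with Xist and no Y-linked UMI. Endothelial cells, the gauge of free RNA, are those with Cdh5 and Pecam1 and no Pdgfra. The calculation was tested on simulated data.

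The cells and the gene lists were chosen with earlier results of these data known. The genes named are those of the rule and Timp1, the 12 highest and 12 lowest age ratios, the 15 highest and 12 lowest over the other fibroblasts, and in each list the extremes and the members explained. A few genes that met these rules are not reported here. Promoters come from RefSeq, build GRCm38.p6. Alternatives varied the added CPM, the filter, the scaling, the weighting of cells, depth, the rule, the removed copies and sex.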

Additional observations from a re-analysis of the deposited data

How the results depend on the processing

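No paired analysis was possible because each age has 1 library. Of the 15 genes highest over the other fibroblasts, 10 to 15 stayed 1.5-fold higher in both libraries under the 6 alternatives run, and of the 12 lowest, 11 or 12 stayed 1.5-fold lower, with 10 and 11 set against cells with 3 defining genes. The ratio of the aged over the adult share stayed above 1 in all alternatives run, at 1.99 with cells thinned to equal depth (6.19% aged, 3.11% adult), 5.04 with all 5 genes (3.93%, 0.780%), 1.25 with at least 3 genes (22.6%, 18.035%), 1.45 in male cells (15.2%, 10.5%), 1.46 in female cells (6.04%, 4.15%) and 1.09 with all aged cells as deposited (8.0%, 7.36%). With no barred gene the shares were 2.96% and 1.78%, of Pdgfra Dcn cells 14.8% and 9.61%, and with Cpz not read the aged share was 10.1%. Genes at least 2-fold higher numbered 171 with no filter, 31 with 25% of cells needed, 151 with all 5 genes and 153 in the cluster led by Cpz and Timp1. Genes at least 2-fold lower numbered 92 with 5 CPM added, 468 with no filter, 50 with 25% of cells needed, 92 after thinning, 70 with all aged cells as deposited, 245 with all 5 genes and 228 in male cells. Fewer genes were measured under the stricter filter and after thinning, and the cause of the other differences was not tested.

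Of 2431 ratios of the 143 named genes under 17 settings, 1615 stayed within the interval of the ratio, 801 moved beyond it and 15 turned. Of 577 list medians over 34 lists and 17 settings, 566 stayed within the interval of the list's median. The interferon median was -0.35 with all 5 genes, -1.01 in female cells, -0.52 in the cluster led by Cpz and Timp1 and -0.47 without the cluster led by Ifit1. The TGF-beta and BMP median was -0.42 in female cells, the NF-kB median 0.55 in the cluster led by Cpz and Timp1, and the proliferation median 0.028 with no filter. Oxidative phosphorylation was at 0.19 under both other scalings, which shifted all genes by 0.079 and 0.085, at 0.040 in female cells and at 0.066 in the cluster led by Cpz and Timp1. The Cpz, cluster and equal-sex settings, and the sexes apart in the chosen over the other fibroblasts, were chosen after seeing the data.

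Ratios that turned in female cells were those of Serpine2 (1.60), Sema3e (1.64), Fbln2 (0.21), Mest (-0.019), Wfdc1 (-0.036), Lox (-0.20), P3h1 (-0.013) and P4ha2 (-0.0013). In the cluster led by Cpz and Timp1, Bmpr1b turned to 0.36, Smad6 to 0.39 and Eln to -0.039. With all 5 genes Cxcl10 turned to 0.41, Ifit3 to 0.52 and Nr4a2 to -0.34, and without the cluster led by Ifit1 Ifit3 turned to 0.12. The female values rest on 155 aged and 146 adult cells, and the male values on 530 aged and 299 adult cells. Why these ratios turned was not tested.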

Other observations

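Other gene groups gave smaller or mixed ratios of aged over adult in the Gdf10 Serpina3n fibroblasts. Of 12 genes of the IGF axis 1 was at least 1.5-fold higher and 4 lower, where 2.76% of all genes were higher and 7.89% lower. Stc1, which blocks the protease that frees IGF from its binding proteins, was at 25.2 CPM in aged and 12.3 CPM in adult cells, while Igfbp5 was at 1288 (aged) and 2068 (adult) CPM and the receptor Igf1r at 88.0 (aged) and 139 (adult) CPM. Of 18 BMP and TGF-beta inhibitors and targets 1 was higher and 1 lower, the lower one being the inhibitory Smad6 at 8.97 (aged) and 16.0 (adult) CPM. Of 14 neural guidance genes 1 was higher and 3 lower, and Sema3e, which signals through plexin D1, was at 15.8 (aged) and 51.8 (adult) CPM, with a log2 ratio of -3.03 in male and 1.64 in female cells.

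Of 21 immediate early genes 1 was higher and 1 lower. Jun was at 1525 CPM in aged and 2351 CPM in adult cells and Nr4a2 at 105 (aged) and 64.7 (adult) CPM. These genes are known to be induced when tissue is dissociated, and their part in the other results was not tested. Of 15 cell-cycle arrest and stress genes 3 were higher, with Sesn2 at 10.4 (aged) and 3.78 (adult) CPM, and 2 lower, with Phlda3 at 20.99 (aged) and 41.3 (adult) CPM. Of 17 NF-kB targets 2 were higher and 0 lower, and of 3 proliferation genes 0 were higher and 1 lower. Of 19 glycosaminoglycan genes 2 were higher and 3 lower, with Cemip2, a hyaluronan-binding membrane protein, at 29.1 (aged) and 14.01 (adult) CPM and the syndecan Sdc2 at 209 (aged) and 341 (adult) CPM.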
